A study of Homo sapiens with 9 samples.

Results

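The genes described here are 9 genes of the interferon receptor, JAK-STAT and IRF pathway, namely *IFNAR1*, *IFNAR2*, *JAK1*, *STAT2*, *IRF9*, *IRF1*, *IRF7*, *USP18* and *SOCS1*. They were chosen by gene name from the 58735 genes of a count table of OVCAR4 cells. The choice was made with earlier results of these data known, although the rule itself uses no measured value. All 9 were in the table and all 9 passed the filter on low counts, which kept 16928 genes. OVCAR4 is an established human cell line of high-grade serous ovarian cancer origin. The cells were transduced with lentivirus that carried a scramble shRNA in pLKO.1 (scr control), shMPZL3 #1 (TRCN0000137304) or shMPZL3 #2 (TRCN0000413087), and all groups were selected with puromycin. RNA-seq of poly-A RNA was made on 3 biological replicates of each group, which gave 9 libraries. The comparisons ask how these genes differed between the scr control and cells with an shRNA against *MPZL3*. This gene encodes a transmembrane protein with an immunoglobulin domain and a predicted role in cell adhesion. Whether a difference came from loss of *MPZL3* or from the shRNA sequence itself was not tested.

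Type I interferons bind a receptor made of IFNAR1 and IFNAR2 chains, to which the kinases TYK2 and JAK1 are attached. The kinases phosphorylate STAT proteins, and STAT2 joins IRF9 in the complex ISGF3, and this complex binds the interferon-stimulated response element (ISRE) in the promoters of interferon-stimulated genes. Type II interferon uses another receptor and leads to STAT dimers, which bind the gamma-activated site (GAS). IRF1 and IRF7 are transcription factors that are themselves induced by interferon, and USP18 and SOCS1 are induced proteins that dampen the signal at the receptor and its kinases. Many tumour cell lines, including epithelial ones, can respond to interferon through this pathway.

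Total counts ranged from 15040102 to 27835841 per library. Values below are normalized counts, that is, counts scaled to the mean library size after TMM normalization, unless another scale is named. The targeted gene *MPZL3* had 536, 611 and 587 normalized counts in the scr control libraries, 119, 143 and 123 with shMPZL3 #1, and 284, 380.4 and 271 with shMPZL3 #2. All 6 knockdown libraries were below all 3 controls, and the fall was deeper with shMPZL3 #1 (log2 fold change −2.17, SE 0.16) than with shMPZL3 #2 (−0.89, SE 0.15). Of 9 markers of serous ovarian carcinoma epithelium, 8 were tested, with edgeR adjusted p-values from 0.0573 to 0.785 in the grouped comparison, and *WT1* had only 3 to 13 counts per library. With shMPZL3 #1 alone, 4 of the 8 were called, namely *CDH1* (log2 fold change 0.41), *KRT7* (0.35) and *PAX8* (0.29), which rose, and *MUC16* (−0.61), which fell, while none of the 8 was called with shMPZL3 #2, where the adjusted p-values were 0.0902 or more. A gene was called where this value was under 0.05. The 9 markers summed to 4548 to 5803 TPM (transcripts scaled to a fixed total per library, a level per length) across libraries. Of 8 leukocyte markers, *MS4A1* was at 0 in all libraries, *CD3E*, *CD68*, *NKG7* and *LYZ* had 1 to 5 counts over all libraries, and *PTPRC* had 4 to 26 counts per library. *CD14* and *CSF1R* rose (log2 fold changes 1.60 and 1.00), and the summed leukocyte level was 1.87 to 3.19 TPM in the scr control, 3.88 to 7.32 with shMPZL3 #1 and 4.49 to 5.63 with shMPZL3 #2. Among 4 fibroblast markers, *DCN* was at 0 in all libraries and *COL1A1* rose by 1.05, with *COL1A2* rising with shMPZL3 #1 alone (1.63), and the 4 summed to 4.67 to 5.67, 11.2 to 17.2 and 6.02 to 8.99 TPM in the same order of groups. The 3 endothelial markers summed to 3.28 to 4.20, 2.96 to 3.50 and 5.75 to 6.91 TPM, with edgeR adjusted p-values from 0.382 to 0.956 in the grouped comparison, and *CDH5* rose with shMPZL3 #2 (log2 fold change 1.05, edgeR adjusted p = 0.00282) and was higher there than with shMPZL3 #1 (1.39). The part of these markers in the results below was not tested. In bulk RNA, a change in the share of responding cells and a change in RNA per cell cannot be told apart.

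With both shRNAs grouped against the scr control, 5 of the 9 genes rose and none fell by edgeR (0 lower also at an unadjusted p under 0.05, and 0 by DESeq2). *IRF7* rose the most, followed by *USP18*, *IRF1*, *STAT2* and *JAK1*, while *IFNAR1*, *IFNAR2*, *IRF9* and *SOCS1* did not pass the test. Of all 16928 genes tested, 9.36% were called higher and 6.4% lower in this comparison. The median log2 fold change was 0.73 over the 9 genes and 0.02 over all genes tested. In those 5 genes all 6 knockdown libraries lay above all 3 controls, a pattern found in 11.8% of all genes tested, with the opposite pattern in 11% and in none of the 9 genes. Without scr control replicate 1, 3 of the 9 genes were called by edgeR, and 453 genes in place of 1584 were called higher over all genes. The log2 fold changes of the 2 genes no longer called were then 0.29 for *JAK1* (adjusted p = 0.184) and 1.68 for *IRF7* (adjusted p = 0.0857), against 0.38 and 1.89 with all libraries.

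**Figure D1:**
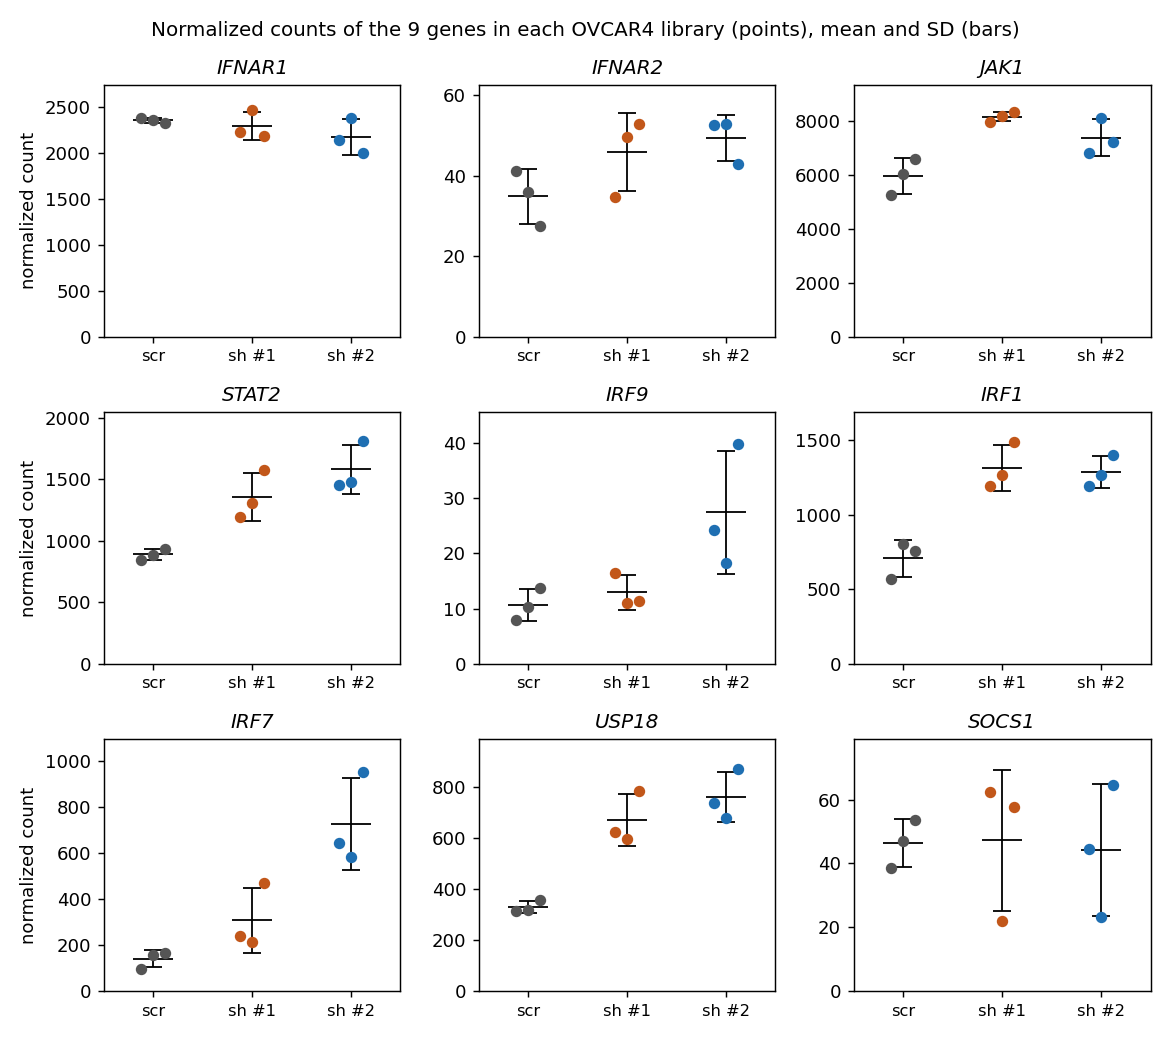
Normalized counts (vertical axes, each starting at 0) of the 9 genes in every library, by group (scr control, shMPZL3 #1, shMPZL3 #2). Points are the 3 libraries of a group, and bars give the mean and SD. For *JAK1*, *STAT2*, *IRF1*, *IRF7* and *USP18* all knockdown points lie above all control points, while the points of *IFNAR1* and *SOCS1* overlap between groups.

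Reads were counted without strand information, so bases that 2 annotated genes share limit what can be assigned to one of them. Identifiers, positions and names of all 58735 genes in the table were those of GENCODE 29 on GRCh38. In that annotation *IFNAR1*, *STAT2*, *IRF7*, *USP18* and *SOCS1* share no exonic base with another gene, and *JAK1* shares 4. All 1838 bases of the principal *IRF9* transcript are also exonic in AL136295.5, a protein-coding gene on the same strand, which had 1 to 7 counts per library. Of the 2899 bases of the principal *IFNAR2* transcript, 90.3% are exonic in AP000295.1 on the same strand, which had 0 counts in every library, or in IL10RB-DT on the opposite strand, which had 0 to 19. For *IRF1*, 16.2% of 3579 bases are shared, mainly with C5orf56 on the opposite strand. How reads in shared bases were counted is not given in the sources used here, so the counts of *IRF9* and *IFNAR2* are uncertain as measures of these genes' levels.

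**Figure D2:**
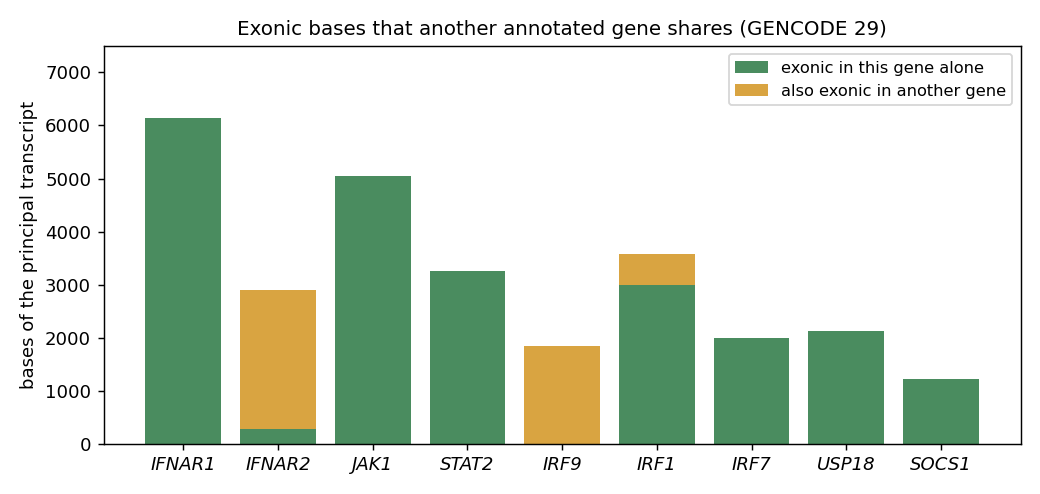
Bases of the principal transcript of each gene (vertical axis, in bases), split into those exonic in that gene alone and those also exonic in another annotated gene. The whole *IRF9* bar and 90.3% of the *IFNAR2* bar are shared, against 16.2% of the *IRF1* bar and almost nothing in the other 6.

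The receptor chains did not pass the test in any comparison. *IFNAR1* (ENSG00000142166, chromosome 21, 33324477 to 33359862, plus strand) encodes the chain to which TYK2 is attached. Normalized counts were 2380.1, 2353 and 2325 in the scr control, 2223, 2463 and 2178 with shMPZL3 #1, and 2136, 2379 and 1992 with shMPZL3 #2. The 3 controls differed little from each other and lay within the range of the knockdown libraries, of which 1 was above all controls and 4 were below. The grouped log2 fold change was −0.08 (95% interval −0.27 to 0.12, edgeR adjusted p = 0.595), so a change of the size seen in *STAT2* lay outside the interval.

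*IFNAR2* (ENSG00000159110, chromosome 21, 33229901 to 33265675, plus strand) encodes the chain that holds JAK1. It had only 20 to 57 counts per library, or 41.2, 35.8 and 27.5 normalized counts in the scr control, 34.8, 49.7 and 53.0 with shMPZL3 #1, and 52.6, 52.7 and 42.8 with shMPZL3 #2. Of the 6 knockdown libraries, 5 were above all controls. The grouped log2 fold change was 0.44 (95% interval −0.11 to 1.00), which missed the threshold in the edgeR test (adjusted p = 0.257), and the exact two-sided permutation test of this gene alone gave p = 0.0476. Because most of its transcript is shared with other genes, these few counts say little about the level of the receptor chain.

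*JAK1* (ENSG00000162434, chromosome 1, 64833229 to 64966504, minus strand), the kinase used by both interferon receptor types, had the most counts of the 9 genes. Its normalized counts were 5246, 6030.0 and 6588 in the scr control, 7968, 8170.3 and 8313 with shMPZL3 #1, and 6808, 8117 and 7193 with shMPZL3 #2. The 3 shMPZL3 #1 libraries were close together and well above the controls, while the lowest shMPZL3 #2 library was only slightly above the highest control. *JAK1* rose in the grouped comparison by 0.38 on the log2 scale (SE 0.11, 1.3-fold, edgeR adjusted p = 0.0281). The rise passed the test with shMPZL3 #1 (0.45, adjusted p = 0.00313) and narrowly missed it with shMPZL3 #2 (0.31, adjusted p = 0.0531), where DESeq2 gave an adjusted p = 0.0279. Over all alternatives, the adjusted p with shMPZL3 #2 ran from 0.0135, by edgeR with a replicate block, to 0.261. The direct difference between the shRNAs was −0.14 (95% interval −0.36 to 0.07, edgeR adjusted p = 0.381), so the 2 shRNAs were not shown to differ. The grouped call was lost without scr control replicate 1 and also without scr control replicate 2 (edgeR adjusted p = 0.100).

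*STAT2* (ENSG00000170581, chromosome 12, 56341597 to 56360155, minus strand) encodes the STAT that is particular to ISGF3. The gene had normalized counts of 846, 884 and 936 in the scr control, 1193, 1305 and 1571 with shMPZL3 #1, and 1455, 1479 and 1811 with shMPZL3 #2. Every knockdown library was above every control, and replicate 3 was the highest of each knockdown group. *STAT2* rose by 0.73 on the log2 scale in the grouped comparison (SE 0.13, 1.65-fold, edgeR adjusted p = 0.00282), by 0.61 with shMPZL3 #1 (adjusted p = 0.00103) and by 0.83 with shMPZL3 #2 (adjusted p = 0.00016).

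*IRF9* (ENSG00000213928, chromosome 14, 24161053 to 24166565, plus strand) encodes the DNA-binding part of ISGF3. It had 6 to 53 counts per library, or 7.98, 10.4 and 13.7 normalized counts in the scr control, 16.5, 10.9 and 11.3 with shMPZL3 #1, and 24.3, 18.3 and 39.8 with shMPZL3 #2. The 3 shMPZL3 #2 libraries were above all others, and with shMPZL3 #1 only 1 of 3 was above the controls. The grouped log2 fold change was 0.92 (95% interval −0.14 to 1.99, edgeR adjusted p = 0.22). It was 0.28 with shMPZL3 #1 (adjusted p = 0.715) and 1.37 with shMPZL3 #2 (95% interval 0.36 to 2.37, adjusted p = 0.0622), and without shMPZL3 #2 replicate 2 the latter passed the edgeR threshold (1.58, adjusted p = 0.0423). As shown above, no base of the principal transcript is exonic in *IRF9* alone. Of the 3794 exonic bases of the whole gene, 1956 are not shared.

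*IRF1* (ENSG00000125347, chromosome 5, 132481609 to 132490798, minus strand) encodes a transcription factor that acts downstream of the interferon receptors. Its normalized counts were 569, 802 and 759 in the scr control, 1193, 1267 and 1491 with shMPZL3 #1, and 1197, 1267 and 1404 with shMPZL3 #2. The 2 knockdown groups covered nearly the same range, and both were clear of the controls. *IRF1* rose by 0.87 in the grouped comparison (SE 0.12, 1.83-fold, edgeR adjusted p = 0.000948), by 0.89 with shMPZL3 #1 (adjusted p = 0.000102) and by 0.86 with shMPZL3 #2 (adjusted p = 0.000246). The difference between the shRNAs was −0.03 (95% interval −0.30 to 0.24, adjusted p = 0.907). C5orf56, the gene on the opposite strand that shares exonic bases with *IRF1*, had 110 to 471 counts per library and rose as well (grouped log2 fold change 0.94, edgeR adjusted p = 0.0114). Without strand information, reads in the bases they share cannot be told apart.

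*IRF7* (ENSG00000185507, chromosome 11, 612553 to 615999, minus strand) encodes the factor that drives the expression of type I interferon genes. Normalized counts were 97.1, 155 and 166 in the scr control, 241, 211 and 470.0 with shMPZL3 #1, and 642, 582 and 952 with shMPZL3 #2. The 3 groups did not overlap, and shMPZL3 #1 replicate 3 stood apart from the other 2 libraries of its group. *IRF7* rose by 1.89 on the log2 scale in the grouped comparison (SE 0.43, 3.70-fold, edgeR adjusted p = 0.0119). The rise was 1.14 with shMPZL3 #1 (95% interval 0.55 to 1.72, adjusted p = 0.00514) and 2.38 with shMPZL3 #2 (95% interval 1.79 to 2.96, adjusted p = 2.32e-05). Without shMPZL3 #1 replicate 3, the edgeR value with shMPZL3 #1 was 0.69 (adjusted p = 0.0453).

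*USP18* (ENSG00000184979, chromosome 22, 18149899 to 18177397, plus strand) encodes a protease that removes ISG15 from proteins and also blocks the binding of JAK1 to IFNAR2. The libraries held normalized counts of 312, 315 and 356 in the scr control, 623, 595 and 784 with shMPZL3 #1, and 735, 678 and 867 with shMPZL3 #2. The controls lay within a narrow range, and the lowest knockdown library was well above the highest control. *USP18* rose by 1.12 in the grouped comparison (SE 0.14, 2.18-fold, edgeR adjusted p = 0.000473), by 1.03 with shMPZL3 #1 (adjusted p = 5.00e-05) and by 1.22 with shMPZL3 #2 (adjusted p = 1.86e-05). *USP41*, a near-identical copy elsewhere on the same chromosome, had 2 counts over all libraries. How reads that match both genes were counted is not given in the sources used here.

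*SOCS1* (ENSG00000185338, chromosome 16, 11254405 to 11256200, minus strand) encodes an inhibitor of JAK kinases. Its normalized counts were 38.6, 47.2 and 53.6 in the scr control, 62.2, 21.9 and 57.7 with shMPZL3 #1, and 44.5, 23.3 and 64.6 with shMPZL3 #2. Replicate 2 of each knockdown group was lower than every other library, and the groups overlapped fully. The grouped log2 fold change was −0.02 (95% interval −0.79 to 0.76, edgeR adjusted p = 0.982), and its sign turned with upper-quartile scaling, with a minimum of 10 counts in each library and without any one of 3 libraries, but not with RLE scaling or DESeq2. The gene had 22 to 86 counts per library. The interval is wide enough to hold a rise or fall of the size seen in *STAT2*, so such a change was neither shown nor excluded.

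For single genes, the exact two-sided permutation test of the 6 knockdown against the 3 control libraries gave p = 0.0119 for *JAK1*, *STAT2*, *IRF1* and *USP18*, the smallest value that this design can give. The same exact permutation test gave p = 0.0238 for *IRF7*, 0.119 for *IRF9*, 0.286 for *IFNAR1* and 0.786 for *SOCS1*. These p-values are unadjusted, and the test treats the 6 knockdown libraries as 1 group although they carry different shRNAs. Over all genes tested, 11.8% had all 6 knockdown libraries above all 3 controls and 11% had them below.

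Each shRNA was also compared with the scr control alone, and both comparisons use the same 3 control libraries. With shMPZL3 #1, 5 of the 9 genes rose and none fell, where 16.8% of all genes tested were called higher and 15.3% lower. With shMPZL3 #2, 4 of the 9 rose and none fell, where 9.36% were called higher and 5.8% lower. The median log2 fold change of the 9 genes was 0.45 with shMPZL3 #1 and 0.83 with shMPZL3 #2, against 0.01 and 0.00 over all genes tested. Compared directly, shMPZL3 #2 was higher than shMPZL3 #1 at 1 of the 9 genes and lower at none, with 7.56% of all genes called higher and 7.56% lower. That gene was *IRF7*, with a difference of 1.24 on the log2 scale (95% interval 0.70 to 1.78, 2.36-fold, edgeR adjusted p = 0.00377). The level of *MPZL3* itself was higher with shMPZL3 #2 than with shMPZL3 #1 by 1.28 (edgeR adjusted p = 5.72e-05). The other differences were 0.22 for *STAT2* (95% interval −0.03 to 0.47), 0.19 for *USP18* (95% interval −0.09 to 0.47) and 1.09 for *IRF9* (95% interval 0.13 to 2.05), with edgeR adjusted p-values of 0.221, 0.371 and 0.117.

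**Figure D3:**
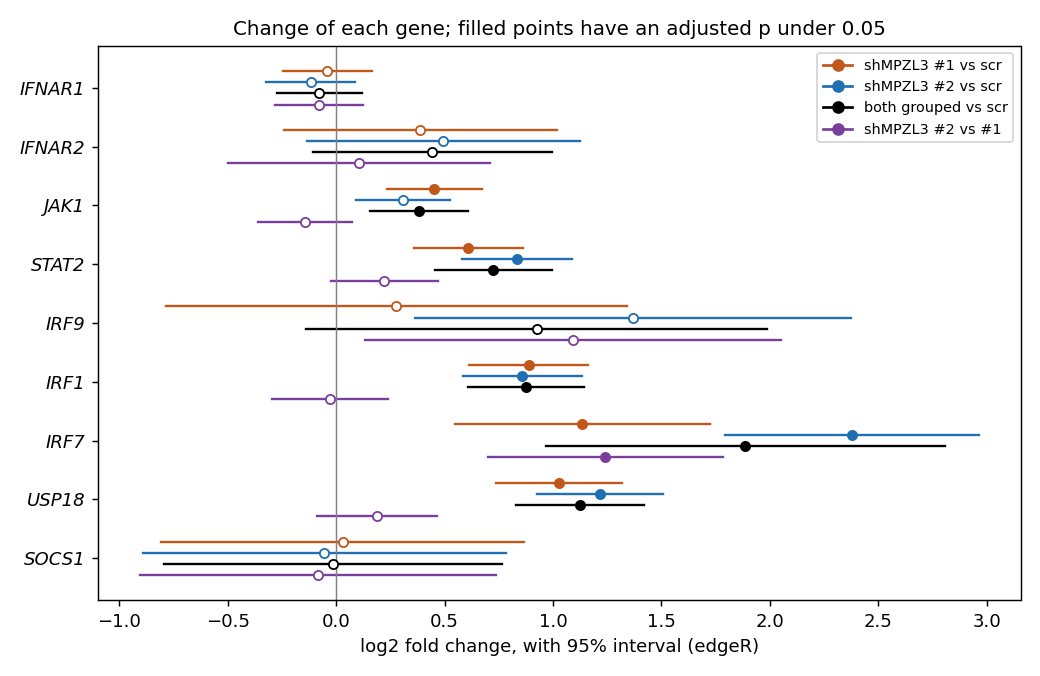
Log2 fold change of each gene (horizontal axis) with its 95% interval from edgeR, for shMPZL3 #1, shMPZL3 #2 and both grouped against scr control, and for shMPZL3 #2 against shMPZL3 #1. Filled points have an adjusted p under 0.05. *IRF9*, which has few counts, has the widest interval in each comparison, and *IRF7* alone has a filled point for the difference between the shRNAs.

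To set the levels of different genes side by side, TPM values were computed with the gene lengths of the table. These lengths count all annotated exons of a gene. For *IRF1* and *STAT2* they are 7799 and 6109 bases, where the principal transcripts have 3579 and 3259. For *USP18* both are 2129 bases. The order of levels holds for these gene lengths and was not computed with transcript lengths. In the scr control *JAK1* was the highest of the 9 at 150 ± 17.2 TPM (SD, n = 3), followed by *IFNAR1* at 59.6 ± 0.849. *USP18* at 24.6 ± 1.75 and *STAT2* at 23.2 ± 1.19 came next, and their libraries overlapped, so the order of these 2 is not resolved. *IRF1* (14.5 ± 2.62 TPM), *IRF7* (8.47 ± 2.28), *SOCS1* (4.13 ± 0.674), *IFNAR2* (1.21 ± 0.239) and *IRF9* (0.45 ± 0.121) followed without overlap between neighbours. The level of *JAK1* lay above that of 94.3% of the genes tested and that of *IRF9* above 5.68%.

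With shMPZL3 #2 the order differed. *IRF7* stood at 42.6 ± 11.5 TPM, at place 4 rather than 6. Its libraries overlapped those of *STAT2* at 40.0 ± 4.97, of *IFNAR1* and of *USP18*. *USP18* at 55.1 ± 6.73 TPM stood beside *IFNAR1* at 53.2 ± 5.45, also with overlap. With shMPZL3 #1 the order was that of the scr control, with *IRF7* at 18.3 ± 8.65 TPM, but the libraries of *USP18* overlapped those of *IFNAR1*, those of *IRF1* overlapped *STAT2*, and those of *IRF7* overlapped *IRF1*. The places of *IFNAR2* and *IRF9* at the low end carry the limit of shared bases given above. With shMPZL3 #2 their libraries also overlapped (1.43 to 1.79 TPM for *IFNAR2* and 0.755 to 1.62 for *IRF9*), so their order there is not resolved.

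**Figure D4:**
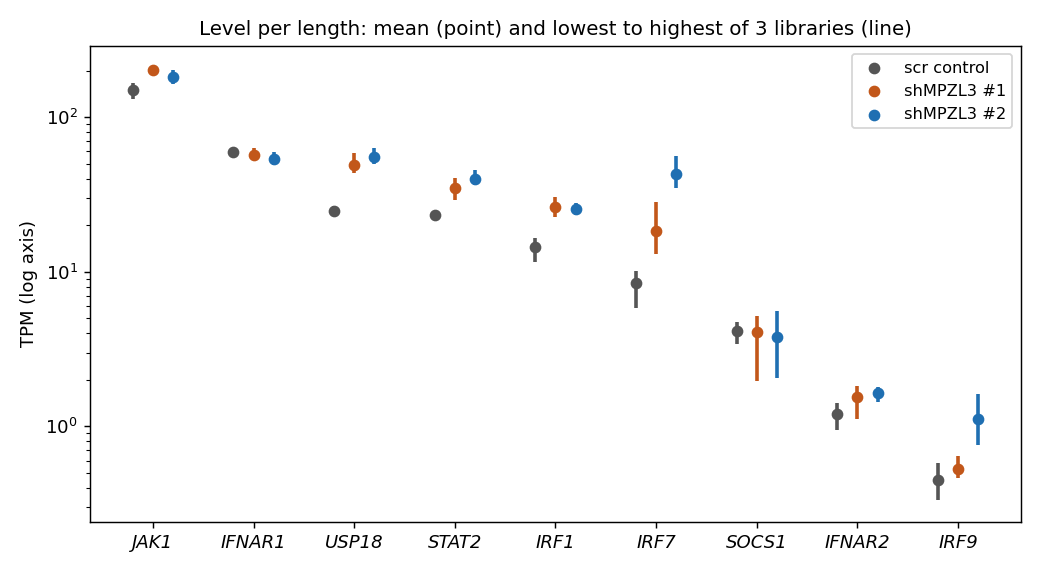
Level per length of the 9 genes in TPM (vertical log axis), computed with the deposited gene length and ordered by the scr control. Points are means of 3 libraries and lines run from the lowest to the highest library. *JAK1* is the highest gene in every group, and *IRF7* goes from 8.47 TPM in the scr control to 42.6 with shMPZL3 #2.

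Reference promoter windows from RefSeq (GRCh38.p14, 250 bases before to 50 after each annotated start) were matched by symbol for 6 of the 9 genes, 9 windows in all. They were searched on both strands for the core of the ISRE, GAAANNGAA, and the core of the GAS, TTCNNNGAA, the sequences that ISGF3 and STAT dimers are known to bind. Of all 35116 windows in the table, 8.11% held the ISRE core and 7.66% the GAS core. *IRF9* and *IRF1* held 1 GAS core each and *SOCS1* held 1 ISRE core, none of them overlapping another match, and neither core was found in the windows of *IFNAR1*, *JAK1* and *STAT2*. The matches are shown 5′ to 3′ on the strand of the gene, with the matched core in capitals, since these are the elements through which the pathway is known to act. Counted from the RefSeq start of each window, they lie 63 to 55 bases before that of *IRF9* (chr14:24161192-24161220, plus strand), 124 to 116 before that of *IRF1* (chr5:132490879-132490907, minus strand) and 113 to 105 before that of *SOCS1* (chr16:11256299-11256327, minus strand). The RefSeq start of *IRF9* differs from the GENCODE 29 gene start given above, and its match lies inside the GENCODE gene, while those of *IRF1* and *SOCS1* lie before the GENCODE gene start as well.
IRF9 (GAS core): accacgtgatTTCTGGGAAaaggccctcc
IRF1 (GAS core): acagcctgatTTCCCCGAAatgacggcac
SOCS1 (ISRE core): cgccaccgcgGAAAGAGAAaccaaaagtg

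A match to these short cores is a description of the sequence. Of the 3 genes that held one, *IRF1* rose, while *IRF9* and *SOCS1* did not pass the test. Of the 3 with windows and no match, *STAT2* and *JAK1* rose, and *IFNAR1* did not pass the test. No window was available for *IFNAR2* or for *IRF7* and *USP18*, which rose the most in the grouped comparison, so these were not searched.

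A list of 55 other genes of the pathway was examined beside these 9. Of these, 32 were tested in the grouped comparison, and 6 rose and 2 fell, where 9.36% of all genes tested were called higher and 6.4% lower, with a median log2 fold change of 0.14 against 0.02 over all genes tested. None of the 21 interferon ligand genes passed the filter, 13 of them were at 0 in all libraries, and the ligand with the most counts, *IFNE*, had 73 over all 9. *IFNB1*, which encodes interferon beta, had 1 count in all, and *IFNG* had 0. Among 4 other receptor chains, *IFNGR1*, the ligand-binding chain for interferon gamma, rose (grouped log2 fold change 0.69, edgeR adjusted p = 0.0214). It had 655 ± 96.3 normalized counts (SD, n = 3) in the scr control, against 1206 ± 217 for shMPZL3 #1 and 908 ± 167 for shMPZL3 #2. Among the other kinases, *JAK3* rose (1.12, edgeR adjusted p = 0.0209), while *TYK2*, the partner of JAK1 at the type I receptor, had a log2 fold change of 0.07 (adjusted p = 0.7).

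Among the STATs, *STAT5A* (0.47, adjusted p = 0.0249) and *STAT6* (0.41, adjusted p = 0.0349), which serve other cytokine receptors, rose in the grouped edgeR comparison. *STAT4* rose with shMPZL3 #2 (1.79, edgeR adjusted p = 0.0183) from 13.2 ± 10.1 to 48.2 ± 16.3 normalized counts (SD, n = 3).

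Among the IRFs, *IRF8* had 269 ± 1.08 normalized counts in the scr control and 282 ± 18.9 with shMPZL3 #1, and fell to 108 ± 12.1 with shMPZL3 #2 (SD, n = 3, log2 fold change −1.32 by edgeR). The log2 difference between the shRNAs was −1.39 (edgeR adjusted p = 2.2e-05). The 2 genes of the list that fell in the grouped comparison, *PTPN2* (−0.43, edgeR adjusted p = 0.0181) and *PTPN11* (−0.32, adjusted p = 0.0384), encode tyrosine phosphatases, and PTPN2 is known to remove phosphate from JAK1. The other 12 negative regulators tested were not called in the grouped comparison, and *SOCS3* had a log2 fold change of −0.06.

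Of the 32 tested genes of the list, 10 rose and 3 fell with shMPZL3 #1, and 6 rose and 3 fell with shMPZL3 #2. Over all genes tested, 16.8% were called higher and 15.3% lower with shMPZL3 #1, and 9.36% and 5.8% with shMPZL3 #2. Called with shMPZL3 #1 and not in the grouped comparison were *IFNLR1* (0.38), *JAK2* (0.78), *IRF5* (0.85) and *SOCS6* (0.47), which were higher, and *PIAS2* (−0.30), which was lower. These counts moved with the control libraries. In the grouped comparison 1, 1 and 2 genes were called higher, and 0, 0 and 1 lower, without scr control replicate 1, 2 and 3.

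**Figure D5:**
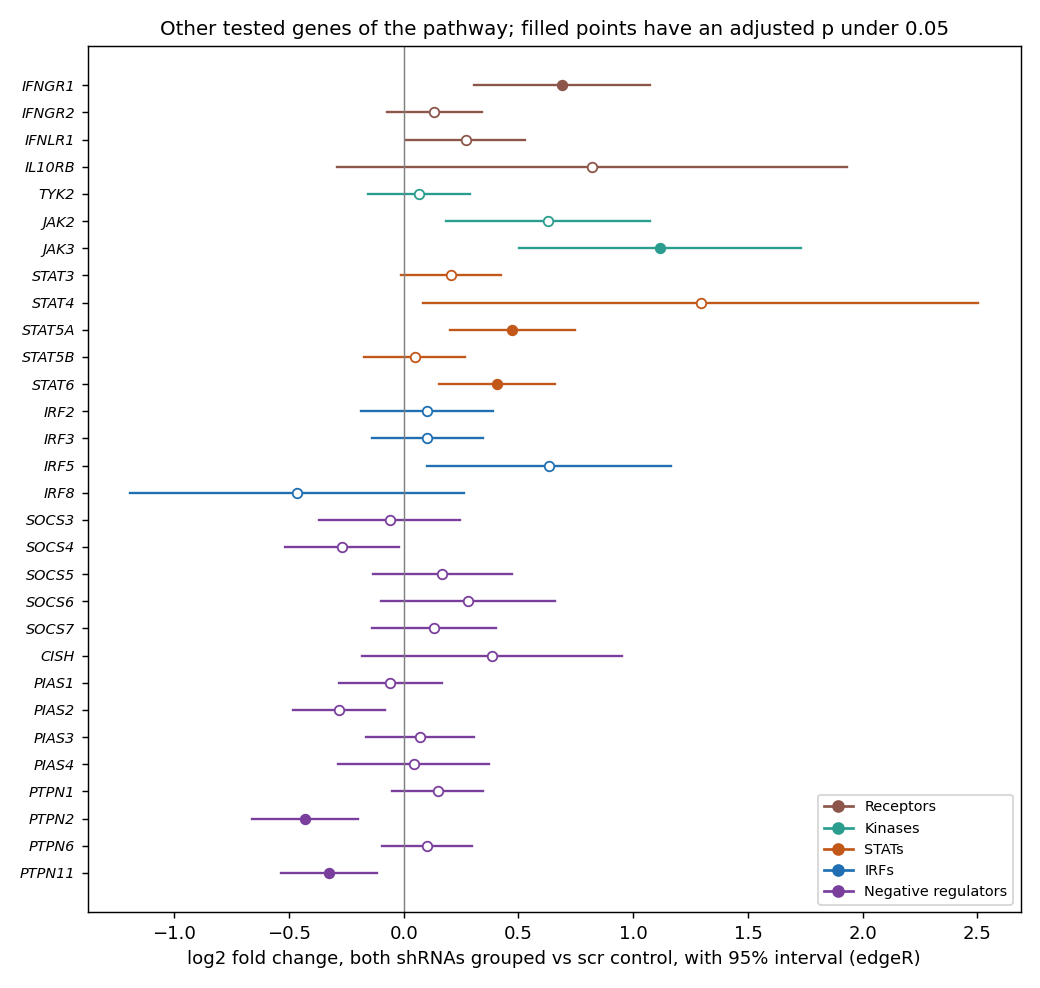
Grouped log2 fold change (horizontal axis, with 95% interval from edgeR) of 30 tested genes of the wider pathway list, coloured by role. Filled points have an adjusted p under 0.05, of which 4 lie above 0 and 2, *PTPN2* and *PTPN11*, below.

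Textbook targets of these factors were counted next to the 9 genes. The activity of the factors themselves was not measured. Of 20 targets of ISGF3, 19 rose and none fell in the grouped comparison, with shMPZL3 #1 and with shMPZL3 #2, each against the same controls. In the grouped comparison their log2 fold changes had a median of 2.75, against 0.02 over all genes tested, and ranged from 0.25 at *MX2*, which was not called, to 5.54 at *OAS2*. Summed over the 20 genes, the level was 213, 303 and 368 TPM in the scr control, 918, 1323 and 2764 with shMPZL3 #1, and 2205, 2463 and 2338 with shMPZL3 #2. The library with the high value, shMPZL3 #1 replicate 3, also had the highest normalized counts of its group for *IRF7*, *STAT2*, *IRF1*, *USP18*, *JAK1* and *IFNAR2*. This was not so for *IFNAR1*, *IRF9* and *SOCS1*. Of 15 targets of type II interferon signalling and IRF1, 11 were tested. Of these, 8 rose in the grouped comparison, 8 with shMPZL3 #1 and 10 with shMPZL3 #2, and none fell. Their median log2 fold changes were 1.29, 1.62 and 0.93 in the same order, against 0.02, 0.01 and 0.00 over all genes tested. Of all genes tested, 9.36%, 16.8% and 9.36% were called higher and 6.4%, 15.3% and 5.8% lower. Compared directly, 6 of the 20 ISGF3 targets were higher with shMPZL3 #2 and none lower (median log2 difference 0.52). Of the 11 others, 3 were higher and 2 lower (median −0.21), with 7.56% of all genes tested called higher and 7.56% lower.

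The genes whose log2 CPM (counts scaled to library size, with a prior count of 2) was most like that of 4 of the 9 genes were listed by Pearson's r over the 9 libraries, which fall into 3 groups, so that r mainly reflects the shared group means. They were searched among 13057 or 13058 genes whose average log2 CPM was 1 or more. For *STAT2* they were *HELZ2* (r = 0.992), *IFI35* (0.990) and *MX1* (0.989). For *USP18* they were *C19orf66* (r = 0.995), *PLAUR* (0.995) and *CYR61* (0.990). For *IRF7* they were *CHMP4B* (r = 0.987), *LAP3* (0.986) and *IFITM1* (0.983), and for *IRF9*, *FXYD5* (0.964), *GNG5* (0.937) and *PDGFB* (0.934). The grouped log2 fold changes of these genes ranged from 0.23 at *GNG5* to 3.45 at *MX1*.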

How the data were processed

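Gene counts of 9 OVCAR4 libraries were analysed, with groups and replicate numbers from the labels. The authors made non-directional poly-A libraries and deposited counts per gene without normalizing or pooling them, together with a gene length. The submitters' processing notes name HISAT2 2.0.5, featureCounts 1.5.0-p3 and hg38. The annotation is not given in the sources used here.

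From these counts, 16928 genes that passed filterByExpr were tested with edgeR 4.0.16 (TMM factors 0.983 to 1.03, two-sided quasi-likelihood tests, Benjamini-Hochberg adjustment over all genes tested, threshold 0.05) in R 4.3.3. The grouped comparison used a design of 2 groups, and the comparisons of single shRNAs a design of 3 groups with one estimate of the spread. TPM was computed from the counts and the deposited gene length. At 15040102 to 27835841 counts per library, counting error is large for *IRF9*, *IFNAR2* and *SOCS1*. Replicates differed by more than counting noise (chi-square per gene 3.08 to 23.2). DESeq2 1.42.0, other scalings and filters, a replicate block and leaving out each library were the alternatives. The main edgeR tests were tried on simulated counts, in which both shRNAs were given the same changes. A difference between the shRNAs was not simulated, and the other steps were not tried in this way.

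The 9 genes, the lists and the tests were chosen with earlier results of these data known. Named genes are the 9 genes, *MPZL3*, the cell type markers, each gene of the pathway list called in the grouped comparison or for either shRNA, and the 3 genes most like *STAT2*, *IRF7*, *IRF9* and *USP18*. *TYK2*, *SOCS3*, *IFNE*, *IFNB1*, *IFNG*, the genes that share exons with or copy a named gene, and the ends of the target ranges were added with their values in view. The values of 2 genes of the pathway list, which its counts include, are not reported here.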

Additional observations from a re-analysis of the deposited data

Results flagged for a closer look

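The effect of the 2 shRNAs on *IRF7* differed by the direct test between them. The log2 difference of shMPZL3 #2 minus shMPZL3 #1 was 1.24 (SE 0.26, edgeR adjusted p = 0.00377), with all 3 shMPZL3 #2 libraries (582 to 952 normalized counts) above all 3 shMPZL3 #1 libraries (211 to 470.0). Leaving out single libraries gave 0.99 to 1.69, with adjusted p-values of at most 0.0297 in the edgeR test.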

How the results depend on the processing

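Of the 9 genes, 5 were called higher in the grouped comparison under DESeq2, RLE and upper-quartile scaling, no filter, at least 10 counts in each library, the replicate block and the mean of both shRNA coefficients, and 3 to 5 when single libraries were left out. None of the 9 was called lower under any alternative. *JAK1* with shMPZL3 #2 passed the threshold under DESeq2 (adjusted p = 0.0279), upper-quartile scaling, no filter, that minimum count, the replicate block (0.0135) and without any one shMPZL3 #1 library, with adjusted p-values from 0.0135 to 0.261 over all its alternatives. *IRF9* could not be fitted under that minimum count, which removes it. *SOCS1* turned in sign in the grouped comparison with upper-quartile scaling (0.0035) and the minimum of 10 counts (0.014), and ranged from −0.13 to 0.13 over left-out libraries. Over left-out libraries it ranged from −0.20 to 0.37 with shMPZL3 #1, −0.44 to 0.24 with shMPZL3 #2 and −0.49 to 0.21 between the shRNAs. The other sign changes were at values near 0, with ranges of −0.096 to 0.0029 for *IFNAR1* with shMPZL3 #1, and, between the shRNAs, −0.068 to 0.22 for *IFNAR2* and −0.10 to 0.070 for *IRF1*.

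Over left-out libraries, the genes of the pathway list called higher ranged from 1 to 8 in the grouped comparison, 6 to 10 with shMPZL3 #1, 1 to 7 with shMPZL3 #2 and 0 to 2 between the shRNAs, and those called lower from 0 to 3, 0 to 3, 2 to 5 and 1 to 2. Genes called lower numbered 1 without a filter and 4 with the mean of both coefficients in the grouped comparison, and 1 with shMPZL3 #1 under upper-quartile scaling, no filter or the minimum of 10 counts. Between the shRNAs, 2 were called higher under DESeq2 and no filter, and 2 lower without a filter. Over all genes, the mean of both coefficients called 2479 higher and 2198 lower, against 1584 and 1083, and without scr control replicate 1 these were 453 and 172. The cause was not tested.

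The main comparisons did not pair samples by replicate number. Correlations overlapped (−0.00143 to 0.218 for equal numbers, −0.147 to 0.0671 for others), while 8 of 9 libraries correlated best, on average, with those of their own number. Whether the numbers mark pairs is thus not settled. With the replicate block, 5 of the 9 genes were called higher with each shRNA, *SOCS1* with shMPZL3 #1 was −0.092, and between the shRNAs 2 genes of the pathway list were called higher and 4 lower.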
